A study of Mus musculus with 6 samples.

Results

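Gelsolin superfamily proteins and tropomyosins are actin-binding proteins that act on the same filaments, and 10 of the 22274 genes in a mouse liver RNA sequencing table were taken by name as these families. The gelsolin superfamily genes were Gsn, Scin, Capg, Vil1, Flii and Svil, and the tropomyosin genes were Tpm1, Tpm2, Tpm3 and Tpm4. Livers of C57 mice that received Ad-Dyrk1b, an adenovirus that overexpresses mouse Dyrk1b, a dual-specificity kinase, were set against livers that received Ad-EGFP, a control adenovirus, with 3 libraries in each group. All 6 samples thus carried an adenovirus. The labels give no age, sex, dose or time after infection, no promoter for the virus, and no statement that each library is from a different mouse. Errors therefore measure the spread between libraries, which may be partly technical. The families were chosen by measured values, namely the counts and FPKM of Gsn in Ad-Dyrk1b against Ad-EGFP livers, so the changes of their members in that contrast are given as a description and without a p-value.

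Actin filaments are kept in constant turnover. Gelsolin, the founding member of its superfamily, is activated by calcium to sever filaments and then stays on the barbed end as a cap, and a secreted form circulates in plasma, where it clears actin released from damaged cells. Scinderin and villin sever filaments in secretory cells and in the microvilli of epithelia, CAPG caps filaments without severing them and is best known from macrophages, and flightless I and supervillin link the gelsolin fold to signalling and to the membrane. Tropomyosins are coiled-coil dimers that lie along the filament and govern which other proteins, myosins and severing proteins among them, reach it. In the annotation terms of the deposited table all 10 genes carried actin filament binding, a term held by 215 genes, and all 6 gelsolin superfamily genes carried actin filament severing, a term held by 13 genes. Of the 10, Gsn alone carried extracellular space, and Gsn, Scin and Vil1 carried calcium ion binding.

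The start regions of Gsn and Tpm2 are shown because these were the members with the large changes described below. The sequences are the 250 bases before a RefSeq start site (GRCm38.p6, the build named mm10 by the submitters' processing notes), written 5′ to 3′ on the gene's strand, and capitals mark GGGCGG or its reverse complement. RefSeq lists 3 start sites of Gsn on the plus strand of chromosome 2. The first (chr2:35256109-35256358) lies next to the GENCODE M21 start of the transcript Gsn-205, and the last (chr2:35282130-35282379) directly before that of Gsn-201, the 2 full-length protein-coding transcripts. The start of Tpm2 is on the minus strand of chromosome 4 (chr4:43523555-43523804). The GENCODE M21 starts of Tpm2-203 (43523595) and Tpm2-206 (43523765) lie inside this window, so by that annotation part of it is transcribed.
Gsn, first start: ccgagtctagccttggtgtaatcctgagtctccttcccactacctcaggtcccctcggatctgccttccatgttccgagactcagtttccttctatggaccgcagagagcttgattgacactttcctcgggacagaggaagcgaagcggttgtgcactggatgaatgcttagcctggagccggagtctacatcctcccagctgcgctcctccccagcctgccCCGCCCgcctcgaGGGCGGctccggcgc
Gsn, last start: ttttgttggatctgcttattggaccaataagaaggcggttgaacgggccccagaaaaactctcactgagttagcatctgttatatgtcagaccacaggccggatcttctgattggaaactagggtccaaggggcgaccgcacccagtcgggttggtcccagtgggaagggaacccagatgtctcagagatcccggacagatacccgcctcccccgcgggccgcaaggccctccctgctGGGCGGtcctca
Tpm2: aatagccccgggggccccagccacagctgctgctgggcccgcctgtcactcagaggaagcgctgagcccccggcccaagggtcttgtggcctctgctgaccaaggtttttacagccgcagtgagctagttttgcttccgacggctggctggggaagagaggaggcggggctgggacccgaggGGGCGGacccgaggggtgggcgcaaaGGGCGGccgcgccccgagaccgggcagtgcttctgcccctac
On both strands of the same 250 bases, 6 motifs were searched, which were GGGCGG (bound by Sp1), the TATA motif TATAAA, the CArG box bound by SRF, GTAAACA of forkhead factors, TTCNNNGAA of STAT factors and CATTCC of TEAD factors. GGGCGG occurred at the 3 Gsn starts and at Tpm2, in 9 of the 12 windows searched for 9 members, and in 32.7% of 32851 windows of all genes. The CArG box occurred in the Vil1 window alone among the 12, against 1.47% of all windows, and CATTCC in the Tpm1 window alone, against 12.6% of all. TATAAA was not in any of the 12 windows (12.4% of all windows), nor was GTAAACA (3.17% of all) or TTCNNNGAA (7.02% of all). A match is a description of the letters only.

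Libraries held 17326516 to 20024888 counts. Dyrk1b itself stood at 62.2, 101 and 96.5 FPKM (fragments scaled to transcript length and library size) in the Ad-Dyrk1b libraries, against 3.81, 4.97 and 4.16 FPKM in the Ad-EGFP libraries, and the groups lay far apart in it. These reads can come from the virus or from the mouse gene. The edgeR test over 13201 genes called 972 higher with Ad-Dyrk1b and 635 lower at an adjusted p under 0.05, or 7.36% and 4.81% of them and 12.2% in all. With limma-trend on log2(FPKM + 1) the split was 556 higher and 702 lower. Summed markers of hepatocytes reached 32148 to 39078 FPKM in Ad-Dyrk1b and 39248 to 41557 FPKM in Ad-EGFP libraries, lower in all 3 Ad-Dyrk1b libraries, with 0 of 7 markers called by edgeR (3 at an unadjusted p under 0.05, beside 28.5% of all tested genes, the share to set each such count in the lists against). Of these 3, Serpina1c and Cps1 were lower and Tat was higher. Most of the sum was Alb, which overlapped between the groups, at 25293 to 32581 FPKM in Ad-Dyrk1b and 32286 to 33759 FPKM in Ad-EGFP. Erythroid markers summed to 1392, 1623 and 5749 FPKM in Ad-Dyrk1b replicates 1, 2 and 3, against 822, 1120 and 1373 FPKM in the Ad-EGFP libraries, which sets Ad-Dyrk1b replicate 3 apart.

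Gsn and Tpm2 were much higher in Ad-Dyrk1b livers, and the other 7 members with enough counts to test were not called in either direction. The 2 called members were both higher and are 2 of the 9 tested, beside 7.36% of all tested genes called higher. That share is printed for orientation only, since the same contrast led to the choice of the families. The tenth member, Scin, had no count in any library. The groups' FPKM did not overlap in Gsn, Tpm2 and Flii, all higher in Ad-Dyrk1b, where 10.9% of tested genes lay that way, 21.9% lay the other way and 32.8% did so in either direction.

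Gsn, which encodes gelsolin (ENSMUSG00000026879, chromosome 2, 35256380 to 35307892, plus strand, mm10), was counted 6102, 7000 and 6000 times in Ad-Dyrk1b replicates 1, 2 and 3, against 362, 476 and 531 times in Ad-EGFP replicates 1, 2 and 3. Per length these were 120.5, 132 and 127 FPKM in Ad-Dyrk1b, against 7.62, 10.3 and 11.6 FPKM in Ad-EGFP. All 3 Ad-Dyrk1b libraries lay close together and far above every Ad-EGFP library. The log2 fold change was 3.78 ± 0.15 (standard error), or 13.7-fold, and it was the 18th highest of all tested genes. With 1 library left out it ranged from 3.64 to 3.90. Among all genes of the table Gsn ranked 640th, 545th and 573rd by FPKM in the Ad-Dyrk1b libraries and 6032nd, 5101st and 4713th in the Ad-EGFP libraries. Within the Ad-Dyrk1b group Gsn varied less than Dyrk1b did. Gsn averaged 127 ± 5.82 FPKM and Dyrk1b 86.5 ± 21.1 FPKM there (SD, n = 3). The library with the least Dyrk1b, replicate 1, also had the least Gsn of that group, but the most Tpm2 (39.3 FPKM). A relation of these levels across 3 libraries was not tested.

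Tpm2, which encodes beta-tropomyosin (ENSMUSG00000028464, chromosome 4, 43514711 to 43523765, minus strand), was counted 886, 815 and 693 times in Ad-Dyrk1b, against 224, 229 and 241 times in Ad-EGFP. Per length these were 39.3, 34.6 and 32.9 FPKM in Ad-Dyrk1b, against 10.7, 11.0 and 11.7 FPKM in Ad-EGFP. The groups were again well separated, with little spread in either. The log2 fold change was 1.75 ± 0.11, or 3.38-fold, the 120th highest of all tested genes, with 1.71 to 1.80 when 1 library was left out.

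**Figure D1:**
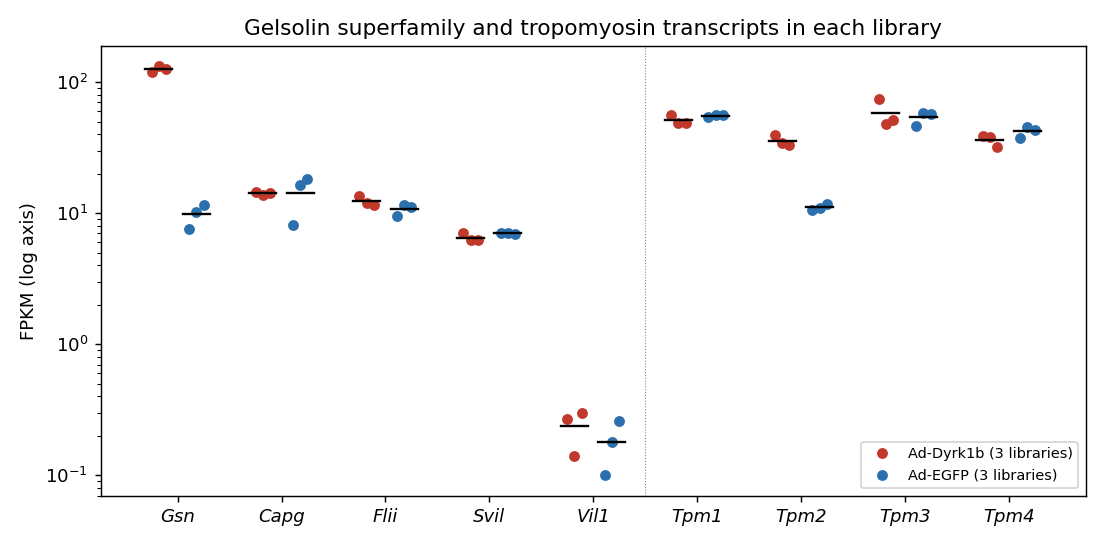
FPKM (log axis) of the 9 members with counts in each of the 3 Ad-Dyrk1b (red) and 3 Ad-EGFP (blue) libraries, with the group mean as a bar; Scin is at 0 throughout and is not drawn. Gsn at 120.5 to 132 FPKM and Tpm2 at 32.9 to 39.3 FPKM in Ad-Dyrk1b stand above Ad-EGFP, while Flii differs little and the other members overlap between the groups.

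None of the remaining gelsolin superfamily genes was called. Flii, the gene of flightless I, a protein that joins the gelsolin fold to leucine-rich repeats, was the closest to being called as well. It had 13.5, 12.1 and 11.7 FPKM in Ad-Dyrk1b, against 9.57, 11.5 and 11.1 FPKM in Ad-EGFP, a log2 fold change of 0.30 ± 0.10. The groups did not overlap, but by a margin of less than the spread within either. Flii overlaps Llgl1 on the opposite strand, and without a stated strand setting reads of the shared stretch cannot be told apart.

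Capg, the capping protein gene, had 14.5, 13.8 and 14.2 FPKM in Ad-Dyrk1b, against 8.09, 16.4 and 18.2 FPKM in Ad-EGFP. The group means were alike and the spread came from the controls, where replicate 1 was low. The log2 fold change was 0.09 ± 0.24, and it was -0.18 without Ad-EGFP replicate 1. Summed markers of Kupffer cells and macrophages, the cells Capg is best known from, stood at 574, 437 and 487 FPKM in Ad-Dyrk1b, against 304, 444 and 628 FPKM in Ad-EGFP, so the same control library was lowest for both. The match is not particular to macrophages. Among the Ad-EGFP libraries replicate 1 was also lowest for Gsn and for the endothelial, T and NK cell and erythroid sums described elsewhere here. The same held for the cholangiocyte, stellate cell, smooth muscle, platelet, and portal fibroblast and mesothelial sums. It was highest for the hepatocyte and neutrophil sums. Of the 9 tested markers of Kupffer cells and macrophages 1 was called higher, the lysosomal glycoprotein gene Cd68, with 0.47 ± 0.13 on the log2 scale (edgeR adjusted p = 0.0304). That call held without Ad-EGFP replicate 2 only, with adjusted p of 0.00790 to 0.119 over the 6 fits that leave out 1 library. The part of these cells in the level of Capg was not tested. In such whole-tissue RNA, fewer cells of a type and less RNA per cell cannot be told apart.

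Svil, the gene of supervillin, a membrane-linked protein of muscle and other tissues, had nearly equal FPKM in the 3 Ad-EGFP libraries. It had 7.04, 6.25 and 6.24 FPKM in Ad-Dyrk1b, against 7.07, 7.08 and 6.88 FPKM in Ad-EGFP, with a log2 fold change of -0.02 ± 0.11. Its counts varied more, with 660, 618 and 560 in Ad-Dyrk1b, against 630, 650 and 551 in Ad-EGFP, and the transcript length behind its FPKM varied from 4622 to 5247 nt among the Ad-EGFP libraries. The sign of the fold change turned without Ad-EGFP replicate 1 or 2 (0.0049 and 0.02).

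Vil1, the villin gene of brush borders, was barely present, with 16, 9 and 17 counts in Ad-Dyrk1b, against 3, 10 and 14 counts in Ad-EGFP. Its log2 fold change of 0.61 ± 0.53 was hardly larger than its own error, and it ranged from 0.20 without Ad-EGFP replicate 1 to 1.08 without Ad-EGFP replicate 3. Vil1 overlaps Usp37 on the opposite strand, which had 339 to 378 counts per library. Without a stated strand setting, some of the few Vil1 reads may belong to Usp37. Scin, the scinderin gene, had 0 counts in each library, and a count of 0 allows up to 0.150 to 0.168 CPM in the Ad-Dyrk1b libraries and 0.167 to 0.173 CPM in the Ad-EGFP libraries (3 counts per library, counting error only).

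None of the other tropomyosin genes was called. Tpm1, the gene of alpha-tropomyosin, had 56.2, 48.9 and 48.9 FPKM in Ad-Dyrk1b, against 54.0, 56.5 and 56.4 FPKM in Ad-EGFP, with a log2 fold change of -0.05 ± 0.09. Tpm4, a non-muscle tropomyosin gene that platelets express, had 39.0, 38.3 and 31.9 FPKM in Ad-Dyrk1b, against 37.7, 45.7 and 43.0 FPKM in Ad-EGFP, with a log2 fold change of -0.12 ± 0.11. For both the groups overlapped.

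Tpm3, whose short products are found in most cell types, was more variable. It had 74.1, 48.0 and 51.6 FPKM in Ad-Dyrk1b, against 46.2, 57.8 and 57.6 FPKM in Ad-EGFP, with Ad-Dyrk1b replicate 1 above all others. The log2 fold change of 0.21 ± 0.15 came down to 0.03 without that library. A related gene, Tpm3-rs7, stands in the same table, and the handling of reads that match both is a step not given in the sources used here.

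With Gsn and Tpm2 the make-up of both families differed between the groups. Gsn accounted for 77.3%, 80.4% and 79.7% of the summed FPKM of the gelsolin superfamily in Ad-Dyrk1b, against 23.5%, 22.7% and 24.2% in Ad-EGFP. The sum of the family was 160 ± 4.29 FPKM with Ad-Dyrk1b and 42.0 ± 8.33 FPKM with Ad-EGFP (SD, n = 3 each). Without Gsn it was 33.3 ± 1.73 FPKM with Ad-Dyrk1b and 32.1 ± 6.34 FPKM with Ad-EGFP. Tpm2 made up 18.8%, 20.4% and 19.9% of tropomyosin FPKM in Ad-Dyrk1b, against 7.18%, 6.42% and 6.94% in Ad-EGFP. The tropomyosin sum overlapped between the groups, at 165 to 209 FPKM in Ad-Dyrk1b and 149 to 171 FPKM in Ad-EGFP. The share of Tpm1 was 27.0% to 29.6% in Ad-Dyrk1b and 33.0% to 36.4% in Ad-EGFP, and that of Tpm4 was 18.7% to 22.5% in Ad-Dyrk1b and 25.4% to 26.7% in Ad-EGFP. Shares within a sum move against each other, so a lower share is no fall in level.

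**Figure D2:**
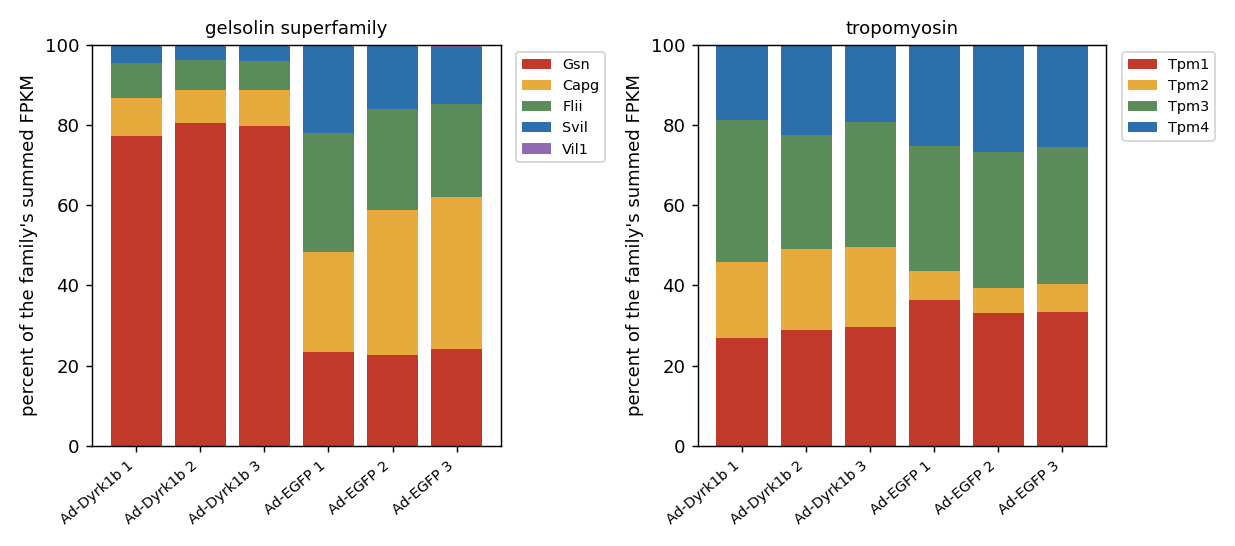
Percent of the summed FPKM of the 6 gelsolin superfamily genes (left) and of the tropomyosins (right) held by each gene. Each bar is a library, with Ad-Dyrk1b libraries left of Ad-EGFP libraries. Vil1 is too thin to see, Scin is at 0, and Vill and Avil are not part of the sum. Gsn holds 77.3% to 80.4% of its sum in Ad-Dyrk1b and 22.7% to 24.2% in Ad-EGFP. Tpm2 holds 18.8% to 20.4% of its own in Ad-Dyrk1b and 6.42% to 7.18% in Ad-EGFP.

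The order of the levels by FPKM therefore differed. In Ad-Dyrk1b livers Gsn came first at 127 ± 5.82 FPKM, clear of Tpm3 at 57.9 ± 14.1 and Tpm1 at 51.3 ± 4.26 FPKM, which overlapped. Below them Tpm4 (36.4 ± 3.92 FPKM) and Tpm2 (35.6 ± 3.28 FPKM) overlapped, and Capg (14.2 ± 0.327), Flii (12.4 ± 0.996) and Svil (6.51 ± 0.459 FPKM) followed without overlap (SD, n = 3). In Ad-EGFP livers Tpm1 (55.6 ± 1.38 FPKM) and Tpm3 (53.9 ± 6.67 FPKM) shared the top, and Tpm4 came next at 42.1 ± 4.06 FPKM. Then came Capg (14.2 ± 5.37), Tpm2 (11.1 ± 0.534), Flii (10.7 ± 1.01) and Gsn (9.84 ± 2.03 FPKM), each overlapping its neighbour. Capg had a wide range, 8.09 to 18.2 FPKM. Svil was lower at 7.01 ± 0.113 FPKM (SD, n = 3). In both groups Vil1 was under 1 FPKM and Scin was last.

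Counts and FPKM of the same gene together give the transcript length that the authors' scaling used in each library. For 490 genes with a single annotated transcript and over 5 FPKM, this implied length was within 1% of its mean across all 6 libraries in 99.0% of genes. It was within 1% of the GENCODE M21 length in 98.2%. For genes with several transcripts it can therefore be read as an average over the transcripts assigned by the authors' software, which is not named in the sources used here. Their transcript set need not equal M21. Tpm4, at 2147 to 2158 nt, lay above both of its M21 transcripts (2128 and 359 nt), so placement against M21 lengths is approximate. The implied length of Gsn was 2651, 2647 and 2642 nt in Ad-Dyrk1b, against 2649, 2641 and 2640 nt in Ad-EGFP. These values overlapped, and all lay between Gsn-205 (2607 nt, coding length 2193 nt) and Gsn-201 (2653 nt, coding length 2340 nt), nearer to Gsn-201. The mix of secreted and cytosolic forms was not measured, since other mixes of the 7 annotated transcripts could give the same mean.

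For Tpm2 the implied length was 1181, 1176 and 1176 nt in Ad-Dyrk1b, against 1172, 1193 and 1189 nt in Ad-EGFP. All 6 were close to Tpm2-203 (1164 nt) and far from the longer protein-coding transcripts of 2098 and 2175 nt. Tpm3 was the member whose lengths did not overlap, with 2219, 2182 and 2186 nt in Ad-Dyrk1b, against 2123, 2172 and 2160 nt in Ad-EGFP. Of 6127 genes with several transcripts and over 5 FPKM, 8.62% did not overlap in either direction and 3.56% were longer in Ad-Dyrk1b. The gap for Tpm3 between the nearest libraries was smaller than the spread within either group.

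**Figure D3:**
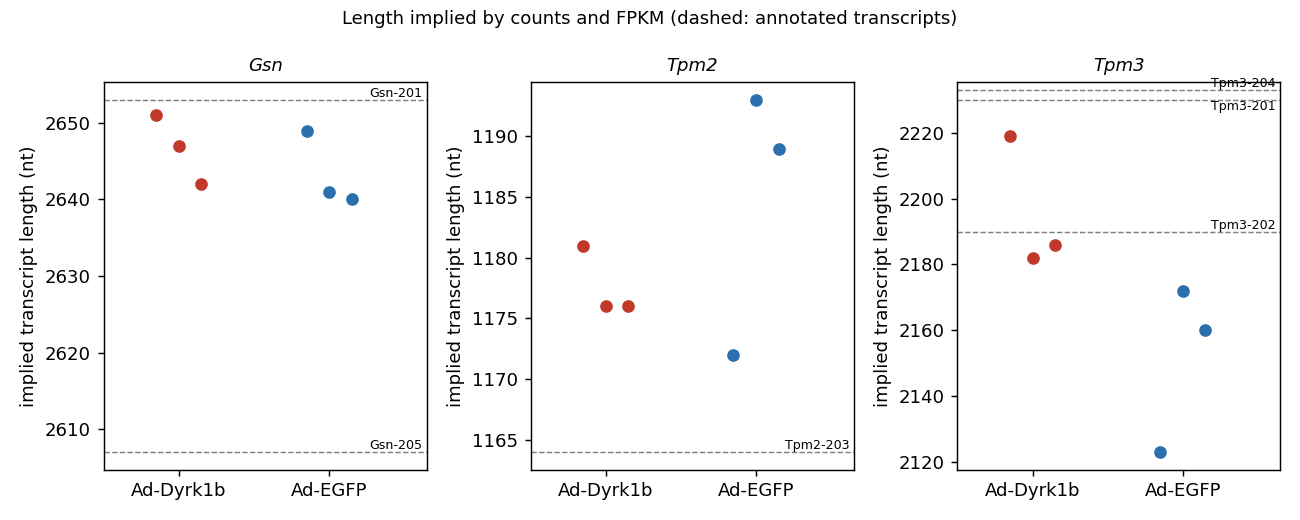
Transcript length in nucleotides implied by counts and FPKM for Gsn, Tpm2 and Tpm3, one point per library, Ad-Dyrk1b left of Ad-EGFP, with dashed lines at annotated GENCODE M21 transcripts. The vertical axes do not start at 0; Gsn stays between 2640 and 2651 nt, Tpm2 between 1172 and 1193 nt, and Tpm3 is 2182 to 2219 nt in Ad-Dyrk1b and 2123 to 2172 nt in Ad-EGFP.

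Calls in the rest of the actin machinery were near the share of all tested genes. Of 83 tested genes in lists of actins and their regulators, 5 were called higher and 3 lower, beside 7.36% and 4.81% of all tested genes. The median log2 fold change of the 83 was 0.08, and over all tested genes it was -0.00498. The count of higher calls was 3, 2, 2, 2, 2 and 4 without Ad-Dyrk1b replicates 1, 2 and 3 and Ad-EGFP replicates 1, 2 and 3, and that of lower calls was 1 without Ad-EGFP replicate 3. These counts include higher calls of 3 genes that were not called with all libraries. Espn, the gene of the bundling protein espin, which had too few counts to test over all 6 libraries, was one without Ad-Dyrk1b replicate 1 (log2 fold change 2.80, edgeR adjusted p = 0.0102). The calponin gene Cnn2 and the coronin gene Coro1a were the others, without Ad-EGFP replicate 3 (edgeR adjusted p = 0.0432 and 0.0313).

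Of the gelsolin superfamily genes outside the 10, the villin-like gene Vill fell. It stood at 7.33, 7.57 and 7.53 FPKM in Ad-Dyrk1b, against 12.4, 12.3 and 13.3 FPKM in Ad-EGFP, and its fold change was -0.72 ± 0.13 on the log2 scale (edgeR adjusted p = 0.00378). The groups were far apart for their spread, and the call held with any 1 library left out. Avil, the advillin gene best known from sensory neurons, had at most 0.13 FPKM in a library and was not tested. Gc, the vitamin D-binding protein that takes up actin monomers in plasma beside gelsolin, was abundant and not called, at -0.15 ± 0.13 on the log2 scale (edgeR adjusted p = 0.499).

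Of 5 tested actin genes 0 were called by edgeR (1 at an unadjusted p under 0.05). Actb, the gene of beta-actin, averaged 520.4 ± 85.7 FPKM with Ad-Dyrk1b and 519.7 ± 50.5 FPKM with Ad-EGFP (SD, n = 3 each), and its log2 fold change, 0.08 ± 0.13 (edgeR adjusted p = 0.711), was below 0 without Ad-Dyrk1b replicate 1 and with limma-trend. Actg1, that of gamma-actin, averaged 364 ± 73.6 FPKM with Ad-Dyrk1b and 308 ± 39.3 FPKM with Ad-EGFP. The edgeR log2 fold change of Actg1, from counts, was 0.31 ± 0.14 (edgeR adjusted p = 0.148).

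Among 12 severing and disassembly genes Dstn, the actin-depolymerizing factor, was called higher at 0.35 ± 0.11 on the log2 scale (edgeR adjusted p = 0.0497). This call did not survive leaving out any of the 6 libraries, with adjusted p of 0.0698 to 0.169 in those edgeR fits. Its better known relative Cfl1, cofilin, had 164 ± 10.5 FPKM with Ad-Dyrk1b and 188 ± 13.3 FPKM with Ad-EGFP (SD, n = 3 each). The edgeR log2 fold change of Cfl1, from counts, was -0.10 ± 0.10 (edgeR adjusted p = 0.559). Of 20 genes of monomer binding and nucleation, the formin gene Fmnl1 and the Arp2/3 subunit gene Arpc1b were called higher with 0.72 ± 0.21 and 0.38 ± 0.11 (edgeR adjusted p = 0.0421 and 0.0470). Neither call survived leaving out any of the 6 libraries, with adjusted p in those edgeR fits of 0.0572 to 0.128 for Fmnl1 and 0.0513 to 0.180 for Arpc1b. The profilin gene Pfn2 fell, at -0.87 ± 0.23 on the log2 scale (edgeR adjusted p = 0.0273). Its call was lost in 3 of the 6 fits that leave out 1 library, namely Ad-EGFP replicate 1, Ad-EGFP replicate 3 and Ad-Dyrk1b replicate 3, and the adjusted p over all 6 edgeR fits was 0.0436 to 0.0904.

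Add3, an adducin that caps filaments at the membrane, rose to 6.66 ± 0.414 FPKM in Ad-Dyrk1b, against 4.26 ± 0.665 FPKM in Ad-EGFP (SD, n = 3 each), and by 0.72 ± 0.13 on the log2 scale (edgeR adjusted p = 0.00307). It was the 1 call among 8 capping genes. Zyx, the focal adhesion protein zyxin, rose to 25.9 ± 1.68 FPKM in Ad-Dyrk1b, against 18.2 ± 0.581 FPKM in Ad-EGFP (SD, n = 3 each), and by 0.48 ± 0.10 on the log2 scale (edgeR adjusted p = 0.00707). With all 6 libraries it was the 1 call among 12 tested bundling and crosslinking genes, Espn not being tested there. Both calls held with any 1 library left out.

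Of 14 myosin and contractile partner genes, which act on tropomyosin-coated filaments, edgeR called 0. By edgeR 4 had an unadjusted p under 0.05, beside 28.5% of all tested genes. Of these 4, Myh9, Myl12b and Mylk were lower and Cnn2 was higher. The median log2 fold change of the list was 0.00. Its summed FPKM was lower without overlap, at 619 to 702 FPKM in Ad-Dyrk1b and 708 to 802 FPKM in Ad-EGFP. Of 7 microvillus genes, partners of villin and ezrin, 1 fell. This was Cdhr2, a protocadherin of the brush border, with 0.05, 0.05 and 0.01 FPKM in Ad-Dyrk1b, against 0.19, 0.21 and 0.22 FPKM in Ad-EGFP. Its log2 fold change was -2.31 ± 0.53 (edgeR adjusted p = 0.0149), a call that rests on few reads. The fit without Ad-EGFP replicate 3 no longer called it, and over the 6 fits that leave out 1 library the adjusted p from edgeR was 0.0386 to 0.0531. Srf, the transcription factor of many actin genes, and its cofactor genes Mrtfa and Mrtfb were not called by edgeR (1 of the 3 at an unadjusted p under 0.05). That was Mrtfb, lower at -0.33 ± 0.11 on the log2 scale. The 3 summed to 11.8 to 12.3 FPKM in Ad-Dyrk1b and 12.7 to 13.4 FPKM in Ad-EGFP, without overlap.

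**Figure D4:**
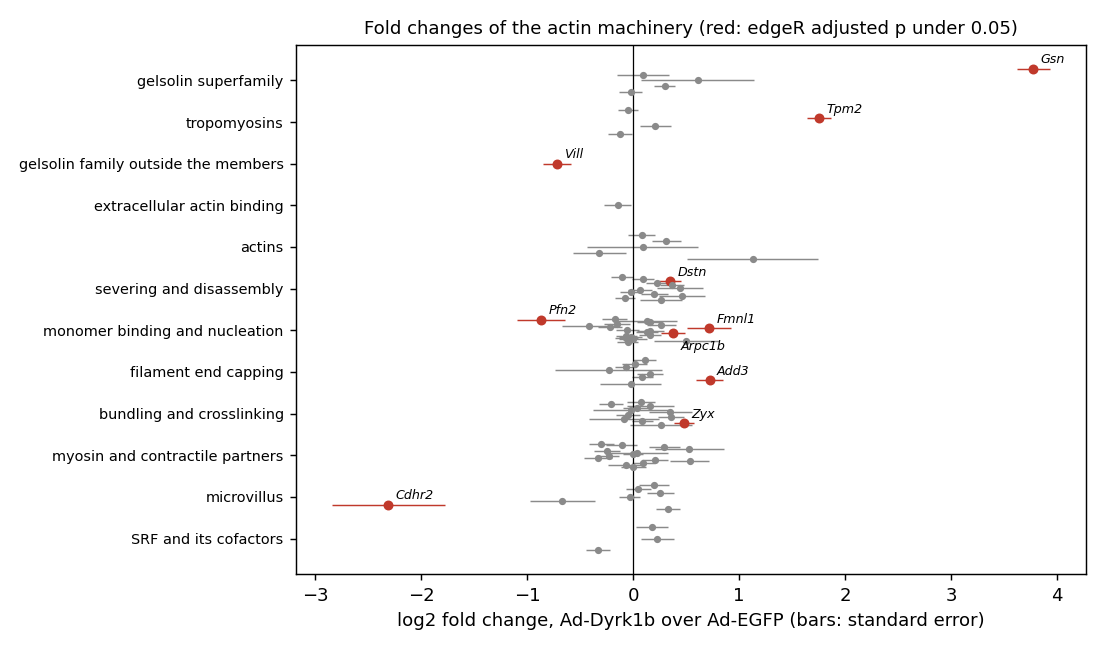
Log2 fold changes, Ad-Dyrk1b over Ad-EGFP, with standard errors as bars, for the 9 tested members and the 83 tested genes of the actin lists, one row per list; red points have an edgeR adjusted p under 0.05. Gsn at 3.78 and Tpm2 at 1.75 have the highest values drawn, followed by Actc1 at 1.13, which is not called and whose error bar reaches nearly to Tpm2, and Vill at -0.72 and Cdhr2 at -2.31 are among the 3 lower calls.

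Gelsolin and tropomyosin genes are also strong in connective tissue, smooth muscle, platelets and bile duct, so markers of these cells are given beside Gsn and Tpm2. Smooth muscle markers summed to 15.8, 18.4 and 16.3 FPKM in Ad-Dyrk1b, against 17.4, 21.1 and 19.7 FPKM in Ad-EGFP, with 0 of 4 tested markers called by edgeR (0 at an unadjusted p under 0.05). Stellate cell markers summed to 146 to 203 FPKM in Ad-Dyrk1b and 153 to 219 FPKM in Ad-EGFP, with 0 of 8 called (2 at an unadjusted p under 0.05). Platelet markers summed to 4.22 to 7.52 FPKM in Ad-Dyrk1b and 4.46 to 6.57 FPKM in Ad-EGFP. The sums of each of these 3 lists overlapped between the groups.

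Portal fibroblast and mesothelial markers summed to 11.8, 16.6 and 18.4 FPKM in Ad-Dyrk1b, against 8.38, 12.5 and 8.40 FPKM in Ad-EGFP. The groups overlapped, and 2 of 7 tested markers were called higher. By edgeR 5 of the 7 had an unadjusted p under 0.05, beside 28.5% of all tested genes, and their median log2 fold change was 0.80. Cd34 and Thy1 rose by 0.80 ± 0.22 and 0.90 ± 0.25 on the log2 scale (edgeR adjusted p = 0.0362 and 0.0359), and each call was lost in 4 of the 6 edgeR fits that leave out 1 library. For Cd34 the libraries left out in these fits were Ad-Dyrk1b replicates 1 and 2 and Ad-EGFP replicates 1 and 3, with adjusted p of 0.0365 to 0.121 over all 6. For Thy1 they were Ad-Dyrk1b replicates 2 and 3 and Ad-EGFP replicates 1 and 3, with adjusted p of 0.0229 to 0.110 over all 6. The mesothelial gene Msln had 0.60, 2.62 and 3.05 FPKM in Ad-Dyrk1b, against 0.62, 0.87 and 0.28 FPKM in Ad-EGFP. Ad-Dyrk1b replicate 1 lay within the Ad-EGFP range of Msln. Without that library 4 mesothelial markers that were not called, or not tested, with all libraries, Msln, Upk1b, Upk3b and Gpm6a, were called higher (edgeR adjusted p = 0.00303, 0.0326, 0.0236 and 0.0455).

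Cholangiocyte markers summed to 219 to 301 FPKM in Ad-Dyrk1b and 138 to 172 FPKM in Ad-EGFP, nearly all from Spp1, the osteopontin gene, which is not limited to bile duct. Spp1 rose by 0.85 ± 0.13 (edgeR adjusted p = 0.00134), and the other 5 markers, the duct keratin genes Krt7 and Krt19 among them, were not called. T and NK cell markers summed to 22.3 to 32.4 FPKM in Ad-Dyrk1b and 13.8 to 20.2 FPKM in Ad-EGFP, without overlap. Of 7 tested 1 was called higher, Gzmb (granzyme B), which rose by 1.14 ± 0.14 (edgeR adjusted p = 0.000384). Gzmb held a large part of the sum, at 10.3 to 13.2 FPKM in Ad-Dyrk1b and 5.35 to 5.85 FPKM in Ad-EGFP. Trac was also higher without overlap, and every other marker of that list overlapped between the groups. The sums of endothelial, B cell and neutrophil markers overlapped between the groups. All 86 markers had counts in at least 1 library. Across all marker lists 5 of 73 tested genes were called higher and 0 lower, beside 7.36% and 4.81% of all tested genes, and 23 had an unadjusted p under 0.05 in either direction, beside 28.5% of all. Taken over all lists, the higher calls and the unadjusted count lie near the shares of all genes. The median log2 fold change of the 73 was higher than that of all tested genes, at 0.390 against -0.005. It was below 0 for hepatocyte, stellate cell and smooth muscle markers (-0.109, -0.123 and -0.092). For every other list it was above 0, with 0.371 for endothelial, 0.560 for T and NK cell and 1.508 for erythroid markers. By list the unadjusted count was highest for portal fibroblast and mesothelial markers (5 of 7), followed by endothelial markers (4 of 8). The count of higher calls was 2, 2 and 3 without Ad-Dyrk1b replicate 2, Ad-EGFP replicate 1 and Ad-EGFP replicate 3, and 7 without Ad-Dyrk1b replicate 1. Higher calls also arose for Clec4f without Ad-Dyrk1b replicate 3, for Rgs5 without Ad-EGFP replicate 2 and for Cd5l without Ad-EGFP replicate 3. A lower call arose for Reln without Ad-Dyrk1b replicate 3 and for Col3a1 without Ad-EGFP replicate 1. What part these cells had in the levels of Gsn and Tpm2 was not tested.

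**Figure D5:**
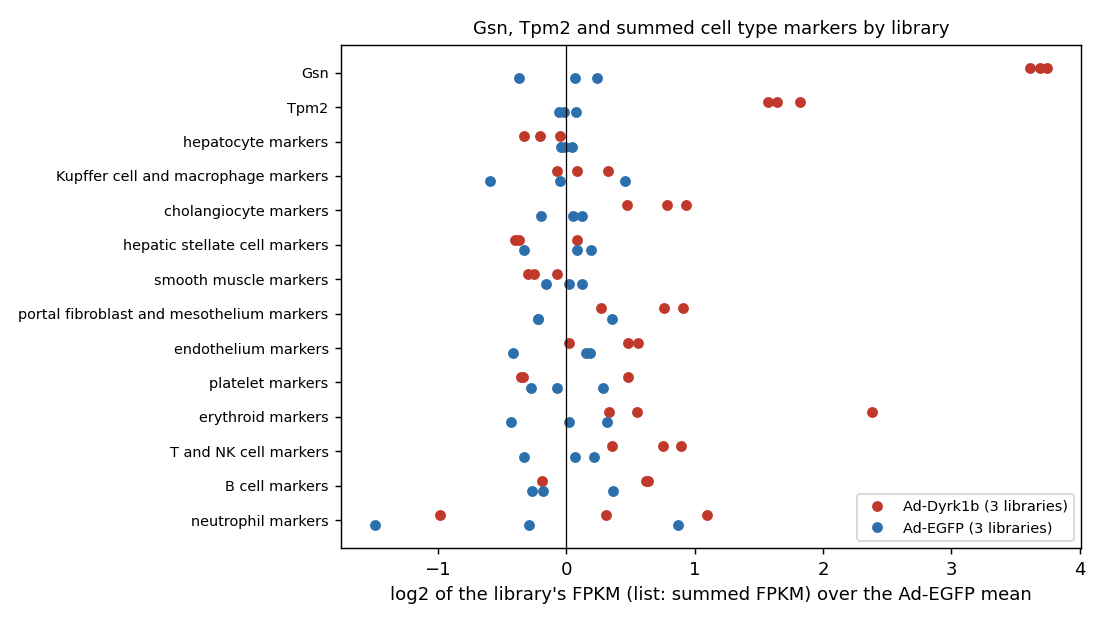
Log2 of each library's FPKM over the Ad-EGFP mean for Gsn, Tpm2 and the summed FPKM of each marker list, with Ad-Dyrk1b (red) above Ad-EGFP (blue) in each row. Gsn lies at 3.61 to 3.75 and Tpm2 at 1.57 to 1.82 in Ad-Dyrk1b, and the marker sums lie under 1.10 except the erythroid sum of Ad-Dyrk1b replicate 3 at 2.38.

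The genes whose profile over the 6 libraries was most like that of Gsn were sought by the root mean square distance of log2 CPM, each centred over the 6 libraries. The nearest of all tested genes was Akr1c18, the 20-alpha-hydroxysteroid dehydrogenase, at a distance of 0.290. It had 27.1, 18.8 and 34.1 FPKM in Ad-Dyrk1b, against 1.63, 1.91 and 1.97 FPKM in Ad-EGFP. Next came the sulfotransferase gene Sult2a7 at 0.296, the glyoxalase-domain gene Glod5 at 0.340, the bile acid-binding protein gene Fabp6 at 0.367 and Dyrk1b at 0.404. All 5 had lower FPKM than Gsn in the Ad-Dyrk1b libraries, with 62.2 to 101 FPKM for Dyrk1b and 2.09 to 34.1 FPKM for the others. Fabp6 had no count in the Ad-EGFP libraries, and Sult2a7 has near-identical copies whose reads may be shared, so their distances are uncertain. No other member and no gene of the actin lists was among the 5. With a group difference as large as that of Gsn, this distance mainly ranks genes by a like fold change. Tpm2, at 1.75 on the log2 scale, and the tested actin list genes, at most 1.13 for Actc1, could therefore hardly come near. A shared profile within the groups was not tested.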

How the data were processed

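Per the file headers, the deposited table gives a whole-number count per gene and library, not normalized, and FPKM values made by the authors, that is counts scaled to transcript length and library size. Their mean FPKM per group, a log2 ratio of those means and a p-value with its adjusted value also stand in the deposited table and were not used here. The build was mm10 and DESeq2 was among the tools, per the submitters' processing notes. Not given in the sources used here were aligner, counter, strand setting and annotation. Coordinates are from GENCODE M21 (22219 of 22274 identifiers found).

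Counts were fitted over the whole table with edgeR 4.0.16 (R 4.3.3), with filterByExpr (minimum count 10, minimum total 15; 13201 genes left), TMM and a robust quasi-likelihood F-test, two-sided, Benjamini-Hochberg over all tested genes, called at an adjusted p under 0.05. The value after a log2 fold change is its standard error. These fold changes come from counts scaled by TMM, so they need not equal the ratio of the FPKM means printed beside them. The fit was tested on simulated counts. Members and lists were chosen with earlier results of these data known. Named genes were the members, Dyrk1b, Actb, Actg1, Gc, Cfl1, Avil, Vill, up to 4 called genes per actin list, up to 2 per marker list and the 5 nearest to Gsn. Msln, Krt7, Krt19, Tpm3-rs7, Upk1b, Upk3b, Gpm6a, Clec4f, Rgs5, Cd5l, Reln, Col3a1, Espn, Cnn2, Coro1a, Actc1, Alb, Serpina1c, Cps1, Tat, Usp37 and the genes of the SRF list lie outside this, chosen once their values had been seen. The same holds for Trac, Myh9, Myl12b and Mylk. Alternatives were DESeq2 size factors, DESeq2, limma-voom and limma-trend on log2(FPKM + 1) or log2(FPKM + 0.1), no filter, a replicate block and leaving out each library. The depth of 17326516 to 20024888 counts sets the floor of 3 counts. The floors cover counting error only.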

Additional observations from a re-analysis of the deposited data

How the results depend on the processing

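Gsn and Tpm2 kept their direction and their call under all 13 alternatives, with log2 fold changes of 3.57 to 3.90 and 1.59 to 1.80, and the count of called members stayed at 2 higher and 0 lower. With limma-trend on log2(FPKM + 1) and log2(FPKM + 0.1), 556 and 553 genes of the whole table were higher, and 2 and 2 genes of the actin lists. With 1 library left out the whole table gave 612 to 800 higher and 294 to 461 lower genes, the actin lists 2 to 4 higher and 1 to 3 lower, and the marker lists 2 to 7 higher and 0 to 1 lower. Fewer samples enter the fits that leave out 1 library. With limma-trend on log2(FPKM + 1) and log2(FPKM + 0.1) the median log2 fold change of the tested genes was -0.064 and -0.083. In the main fit it was -0.00498, so FPKM set Ad-Dyrk1b slightly lower against Ad-EGFP than the TMM-scaled counts did. This applies to all FPKM comparisons here. For limma-trend the cause of the different counts of calls was not tested. With 1 library left out Capg ranged from -0.1769 to 0.3007, Svil from -0.0886 to 0.0167 and Actb from -0.0226 to 0.1535. Signs turned for Actb (-0.0226 without Ad-Dyrk1b replicate 1, and -0.0060 with limma-trend on either scale), for Capg (-0.18 without Ad-EGFP replicate 1) and for Svil (0.0049 and 0.0167 without Ad-EGFP replicates 1 and 2). The cause was not tested. With the replicate number as a block, 1109 genes were higher and 774 lower and 6 and 4 of the actin lists. Deviations of same-numbered libraries correlated across genes at 0.0245, 0.172 and 0.108, so the numbers were not taken to pair the samples, and Ad-Dyrk1b replicate 1 did not correlate best with its own number. Low counts limit Vil1, Scin, Avil and Cdhr2.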
